A study of Arabidopsis thaliana with 24 samples.

Results

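The 10 heat shock transcription factor genes HSFA1A, HSFA1B, HSFA1D, HSFA1E, HSFA2, HSFA3, HSFA7A, HSFA7B, HSFB1 and HSFB2B of Arabidopsis thaliana were taken by their gene identifiers. The rule uses no measured value, but these members and the gene lists set beside them were chosen with earlier results of these data known. The members are 10 of the 21 heat shock factor genes of this plant. They are 10 of the 23390 genes tabulated at 1 h and the 23282 tabulated at 12 h, and all 10 were listed in both tables. RNA from whole seedlings of wild-type Col and of the mutant ino80-5 was sequenced in 24 libraries, 3 for each of 8 groups. Seedlings were 7 days old, raised at 21 °C in short days, and then either kept at 21 °C or given 27 °C, a mild warmth, for 1 h or 12 h. Thus each genotype had a 21 °C and a 27 °C group at each time, and no other allele or agent is named in the labels. The INO80 protein drives a complex that moves and edits nucleosomes, and what the ino80-5 allele changes in the gene is not given in the labels. The mutant is 1 allele, and each library is whole-seedling RNA.

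Heat shock factors bind heat shock elements, which are inverted repeats of a short GAA unit, in the promoters of chaperone genes. The HSFA1 proteins are present without heat and are held inactive by the chaperones HSP70 and HSP90. On heating they are released, and they switch on chaperones and further factors, among them HSFA2, which prolongs the response, HSFA7A, HSFA7B, and HSFA3 through the regulator DREB2A. Class B factors such as HSFB1 and HSFB2B lack the activation domain of class A and act as repressors. In RefSeq's annotation of TAIR10.1 the HSFA1 genes lie as follows: HSFA1A (AT4G17750) at chr4:9869818-9871646, HSFA1B (AT5G16820) at chr5:5530195-5532889, HSFA1D (AT1G32330) at chr1:11656964-11660471 and HSFA1E (AT3G02990) at chr3:673428-676428. The other class A genes are HSFA2 (AT2G26150) at chr2:11135624-11137792, HSFA3 (AT5G03720) at chr5:971142-974326, HSFA7A (AT3G51910) at chr3:19265141-19266806 and HSFA7B (AT3G63350) at chr3:23399236-23400812. The class B genes are HSFB1 (AT4G36990) at chr4:17440177-17442151 and HSFB2B (AT4G11660) at chr4:7042354-7044708.

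The tables give TPM, a transcript abundance scaled by gene length and library, and no counts. From the steps between small values, depth at 1 h was estimated at 13.8 to 25.3 M fragments per library, and at 12 h at 14 to 15.7 M. INO80 mRNA spanned 14.4 to 20.3 TPM in the 6 Col libraries at 1 h and 10.9 to 14.9 in the 6 ino80-5 libraries, so the ranges overlapped slightly and the transcript was still present in the mutant. At 12 h it spanned 19.97 to 47.9 TPM in Col and 16.4 to 32.1 in ino80-5. These ranges pool 21 °C and 27 °C. Compared at the same temperature, INO80 mRNA was lower in ino80-5 each time (adjusted p under 0.05 by limma on log2(TPM + 1)). The differences were -0.44 at 21 °C and -0.45 at 27 °C at 1 h, and -0.34 and -0.59 at 12 h. The -0.34 lost its call on leaving out any 1 of the libraries compared (adjusted p of 0.0524 to 0.126). Summed TPM of 3 green tissue markers lay between 58170 and 70000 at 1 h and between 30400 and 61220 at 12 h. At each time 1 of 4 root markers and 4 of 5 floral organ markers averaged under 1 TPM, and no marker was at 0 in all libraries of a time. Whether the 3 libraries of a group stem from separate plants or plates is not given in the labels, so p-values measure the spread between these samples. In whole seedlings, fewer cells of a type and less RNA per cell cannot be told apart.

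The promoter windows of 4 members are shown because they carry, or lack, the element that heat shock factors bind. HSFA2, HSFA7A and HSFA7B hold heat shock elements, and HSFB2B, which also rose with warmth at 1 h, has no match in its window. Each runs from 250 bases before to 50 bases after the annotated gene start, 5′ to 3′ on the gene's strand, in RefSeq's TAIR10.1. The labels name TAIR10. Capitals mark paired units, GAANNTTC or TTCNNGAA.
HSFA2 (chr2:11135374-11135673, plus strand): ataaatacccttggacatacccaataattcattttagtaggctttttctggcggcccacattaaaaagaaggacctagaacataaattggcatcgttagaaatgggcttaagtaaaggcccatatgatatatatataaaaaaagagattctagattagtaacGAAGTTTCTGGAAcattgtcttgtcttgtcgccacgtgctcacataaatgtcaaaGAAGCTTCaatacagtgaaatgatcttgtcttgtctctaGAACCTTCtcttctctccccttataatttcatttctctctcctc
HSFA7A (chr3:19264891-19265190, plus strand): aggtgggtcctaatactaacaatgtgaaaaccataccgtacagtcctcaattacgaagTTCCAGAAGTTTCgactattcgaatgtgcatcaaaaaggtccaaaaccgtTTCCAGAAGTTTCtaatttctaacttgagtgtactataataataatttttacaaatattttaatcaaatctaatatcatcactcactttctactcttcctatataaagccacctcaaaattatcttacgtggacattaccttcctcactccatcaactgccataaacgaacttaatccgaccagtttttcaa
HSFA7B (chr3:23398986-23399285, plus strand): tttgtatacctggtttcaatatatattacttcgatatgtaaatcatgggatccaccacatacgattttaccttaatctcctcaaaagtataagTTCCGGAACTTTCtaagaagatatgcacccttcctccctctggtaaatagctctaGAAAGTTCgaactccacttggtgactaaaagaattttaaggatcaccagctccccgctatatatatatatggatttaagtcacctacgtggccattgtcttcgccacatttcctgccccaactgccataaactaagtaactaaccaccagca
HSFB2B (chr4:7042104-7042403, plus strand): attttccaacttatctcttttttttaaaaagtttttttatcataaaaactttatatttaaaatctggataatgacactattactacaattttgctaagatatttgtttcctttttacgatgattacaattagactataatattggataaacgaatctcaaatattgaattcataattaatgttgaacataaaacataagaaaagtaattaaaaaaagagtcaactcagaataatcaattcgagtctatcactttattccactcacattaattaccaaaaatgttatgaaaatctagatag

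Either paired unit occurred in the windows of 5 of 10 members and in 19.3% of 27443 protein-coding genes, searched on both strands. GAANNTTC was in 11.6% and TTCNNGAA in 9.16% of these windows, and windows with both count in each. Runs of 3 alternating units, in which 2 paired units overlap by one GAA or TTC, were found in HSFA2, HSFA7A and HSFA7B, 3 of 10 members, and in 0.481% of all windows. The run of HSFA2 began 88 bases upstream of the gene start, and 2 further paired units lay 33 bases upstream and 6 bases downstream. HSFA7A held 2 runs, beginning 192 and 142 bases upstream, and HSFA7B held 1 run at 157 bases and a further pair at 102 bases. HSFA1E and HSFB1 held 1 paired unit each and no run. The G-box CACGTG, bound by bZIP and bHLH factors, was in 7.68% of windows and among the members in HSFA2 and HSFA1E. No match was found for HSFA1A, HSFA1B, HSFA1D, HSFA3 and HSFB2B, which says only that these letters are not in this window. Among the other 11 heat shock factor genes 2 held a paired unit and none a run. Of 18 chaperone and stress genes known as targets of heat shock factors, 11 held a pair and 3 a run.

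**Figure D1:**
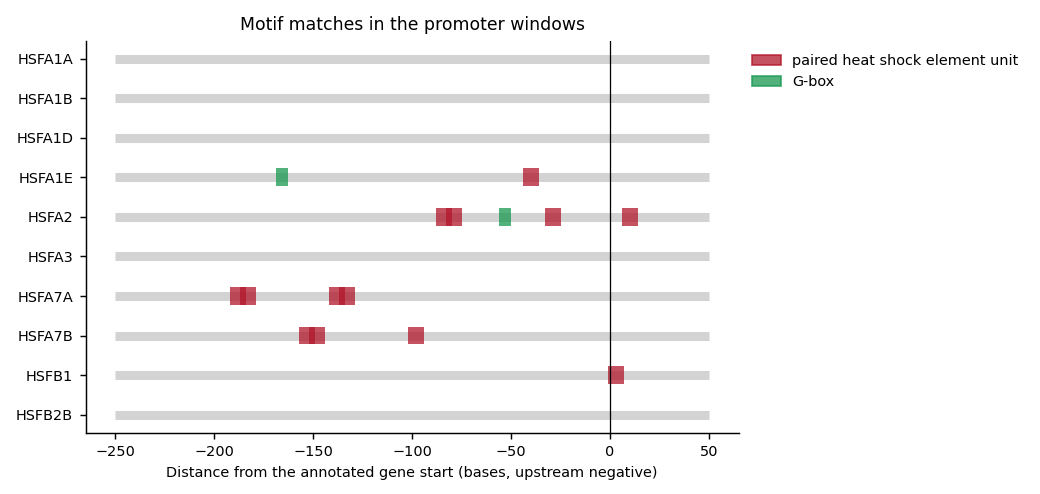
Matches in the promoter windows of the 10 members, by distance from the annotated gene start in bases, with upstream negative. Red boxes are paired heat shock element units and green boxes G-boxes. Overlapping red boxes are runs of 3 units, present in HSFA2, HSFA7A (2 runs) and HSFA7B.

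At 21 °C the class B gene HSFB1 was by far the most abundant member at 1 h. Its mean was 102 ± 9.93 TPM (SD, n = 3) in Col, against 13.9 ± 1.95 for HSFA2 and 11.7 ± 1.14 for HSFB2B, whose libraries overlapped each other. HSFA1D, HSFA1A and HSFA1B followed at means of 8.89, 8.75 and 7.96 TPM with overlapping libraries, then HSFA7A and HSFA1E at 5.64 and 5.52, also overlapping. HSFA3 stood at 1.65 and HSFA7B at 0.0792 TPM. TPM is scaled by gene length, so these levels can be set against each other. After 1 h at 27 °C in Col HSFA2, at 95.1 TPM, had reached HSFB1, at 90.6, and their libraries overlapped. In ino80-5 at 27 °C the order kept HSFB1 first, with 80.9 TPM against 56.8 for HSFA2, and no library of the 2 genes overlapped.

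The share of HSFA2 in the summed TPM of the 10 members was 8.39% ± 1.05 (SD, n = 3) in Col at 21 °C and 36.5% ± 0.889 at 27 °C after 1 h. In ino80-5 it was 5.21% ± 0.115 and 26.9% ± 0.11. HSFB1 held 61.3% of the sum in Col at 21 °C and 34.8% at 27 °C. The sum itself was 166 ± 14.7 TPM in Col at 21 °C, 261 ± 5.49 at 27 °C, and in ino80-5 138 ± 7.36 and 211 ± 4.94. At 12 h HSFA2 made up at most 0.724% of the sum as a group mean, and HSFB1 and HSFA7A led in every group. HSFA7A held 21.5% ± 1.74 of the sum in Col at 21 °C and 31.6% ± 1.34 in ino80-5. Levels at 1 h and 12 h come from tables scaled apart, and the labels do not give the time of day of either harvest, so the times are only set side by side.

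**Figure D2:**
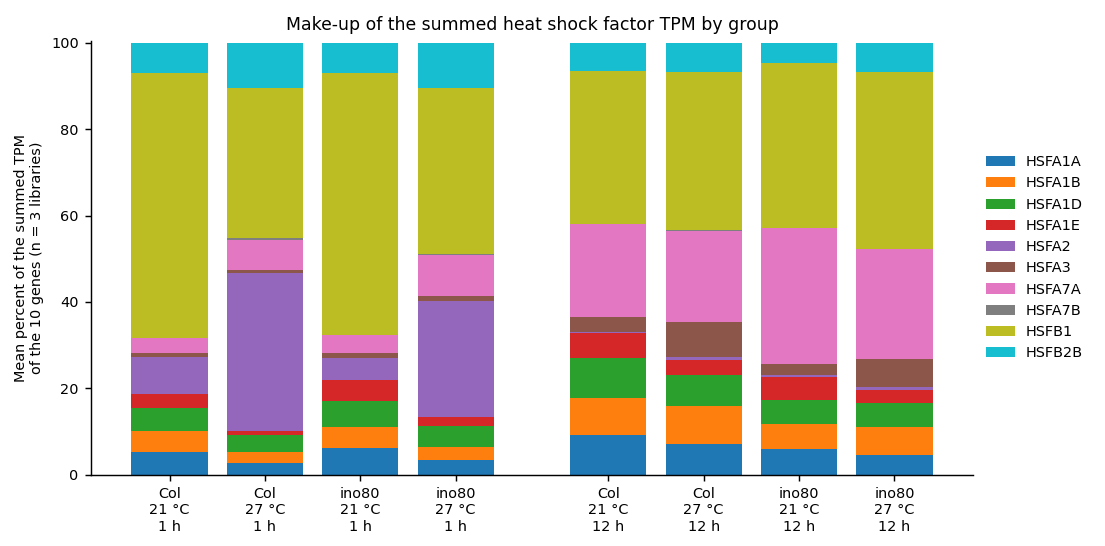
Mean percent of the summed TPM of the 10 members contributed by each gene, by group, as stacked bars of 3 libraries each. At 1 h the HSFA2 band is 36.5% in Col and 26.9% in ino80-5 at 27 °C, and at 12 h it is nearly gone while HSFA7A and HSFB1 dominate.

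The first question was how the members respond to warmth in wild type after 1 h. HSFA2, HSFA7A and HSFB2B rose and HSFA1E fell, while the other 5 tested members did not pass. Changes are log2 fold changes of TPM + 1 ± SE from limma with n = 3 per group, with two-sided p adjusted over all tested genes and called under 0.05. The added 1 draws the changes of low genes toward 0.

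HSFA2 had 14.6, 15.4 and 11.7 TPM in Col at 21 °C and 97.6, 96.3 and 91.3 TPM at 27 °C. The groups lay far apart, with a ratio of means of 6.84, and the fitted change was 2.70 ± 0.08 (adjusted p = 1.53e-12). HSFA7A, a heat-induced class A factor, had 5.22, 6.27 and 5.44 TPM at 21 °C against 18.6, 19.4 and 17.4 TPM at 27 °C. It too separated without overlap and rose by 1.55 ± 0.11 (adjusted p = 1.46e-08). The class B gene HSFB2B had 10.9, 13.02 and 11.3 TPM at 21 °C and 26.8, 27.5 and 27.7 TPM at 27 °C, a rise of 1.16 ± 0.09 (adjusted p = 3.97e-08). HSFB2B overlaps the opposite-strand gene AT4G05910 by 352 bp, and since the strand setting is not stated its values are uncertain.

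HSFA1E went the other way. Its Col libraries had 5.77, 5.13 and 5.65 TPM at 21 °C and 2.27, 2.79 and 3.15 TPM at 27 °C. All warm libraries were below all cool ones, and the change was -0.81 ± 0.10 (adjusted p = 1.27e-05). Its close relatives HSFA1A, HSFA1B and HSFA1D changed by -0.25 ± 0.12, -0.26 ± 0.11 and 0.18 ± 0.09, and none passed (adjusted p = 0.128, 0.0743 and 0.153). HSFA1A passed without Col 21 °C replicate 1 (-0.39, adjusted p = 0.0128), as did HSFB1 (-0.22, adjusted p = 0.0355), and HSFA1B passed with quantile normalization (adjusted p = 0.0448). HSFA3 gave 0.04 ± 0.14 (adjusted p = 0.852) and HSFB1 -0.16 ± 0.07 (adjusted p = 0.0921).

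Of the 9 members tested, 3 rose and 1 fell, against 15.7% of 19190 tested genes called higher and 18.5% called lower. HSFA7B, the tenth member, did not reach the filter of at least 1 TPM in at least 3 of 12 libraries at either time. It had 0.0557, 0.0827 and 0.0991 TPM in Col at 21 °C and 0.576, 0.685 and 1.24 TPM at 27 °C, estimated at 17 fragments in the highest library of that time. The groups did not overlap, and with no filter on low TPM its change was 0.75 ± 0.13 (adjusted p = 0.00103). In ino80-5 it was 0.53 ± 0.13 (adjusted p = 0.0107) on the same terms.

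In ino80-5 the same comparison at 1 h called 4 rises and 1 fall among the 9 tested members, against 15.2% of all tested genes called higher and 16.8% called lower. HSFA2 had 7.46, 6.89 and 7.27 TPM at 21 °C and 58.1, 56.2 and 56.1 TPM at 27 °C. Its rise of 2.82 ± 0.08 (adjusted p = 8.73e-13) started and ended lower than in Col. HSFA7A rose by 1.68 ± 0.11 (adjusted p = 6.53e-09), from 6.33, 5.63 and 4.93 TPM to 22.8, 17.3 and 20.7 TPM. HSFB2B rose by 1.12 ± 0.09 (adjusted p = 6.31e-08). HSFA1E had 6.38, 6.99 and 6.73 TPM at 21 °C and 4.05, 4.08 and 4.35 TPM at 27 °C, and fell by 0.58 on the log2 scale (adjusted p = 0.00038). HSFA1D rose by 0.32 ± 0.09 (adjusted p = 0.0137), and this call was lost without ino80-5 21 °C replicate 3 (adjusted p = 0.0646) or 27 °C replicate 2 (adjusted p = 0.0744). HSFA3 changed by 0.38 ± 0.14 (adjusted p = 0.0546), and passed with median-of-ratios scaling (adjusted p = 0.0486) or when only the 2 groups were fitted (adjusted p = 0.0361).

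**Figure D3:**
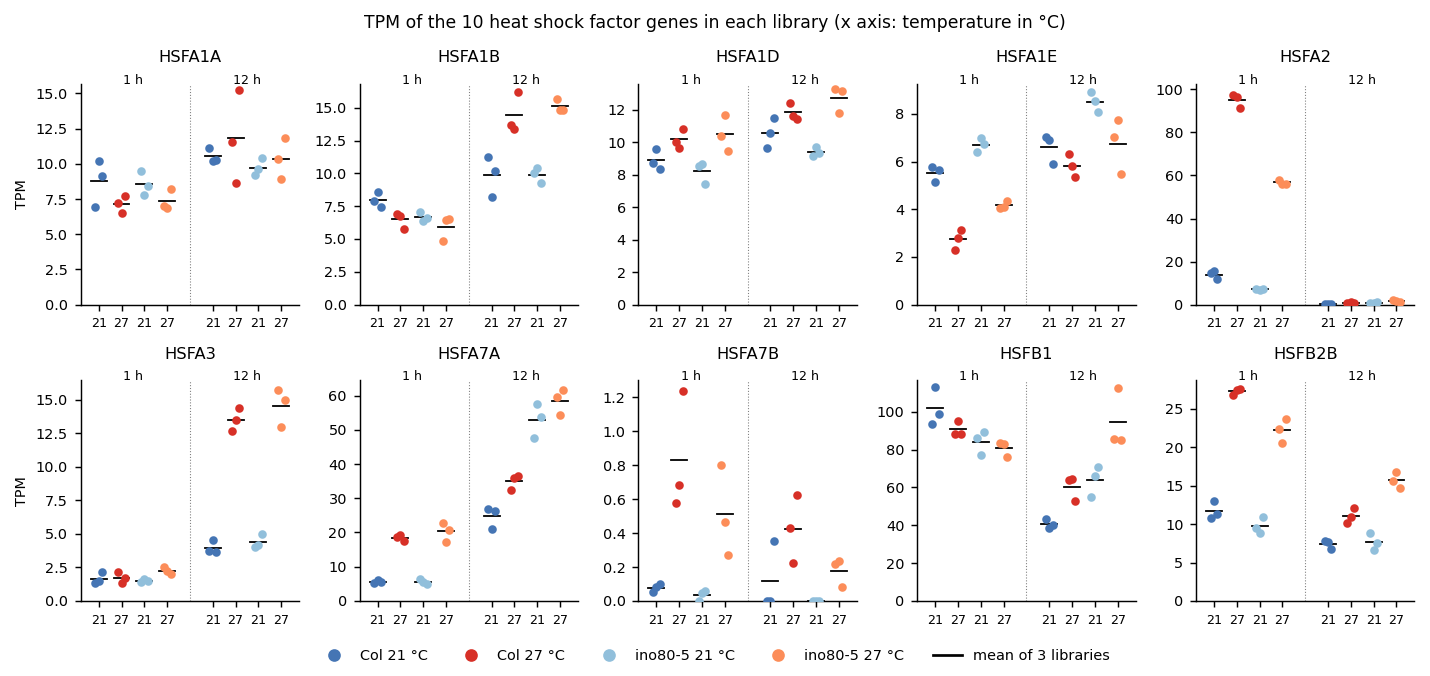
TPM of the 10 members in each library, 1 panel per gene, with its own linear y axis from 0. The x axis gives the temperature in °C within 1 h and 12 h, dots are libraries coloured by group and black lines are means of 3. HSFA2 at 1 h rises from 11.7 to 15.4 TPM to 91.3 to 97.6 TPM in Col and stays below 2 TPM in every group at 12 h, and HSFA3 spans 12.6 to 14.4 TPM in Col at 27 °C and 12 h.

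After 12 h at 27 °C the members called differed, and HSFA3 had the largest change on the log2(TPM + 1) scale. As a ratio of means in Col HSFA2 stood at 3.92 and HSFA7B at 3.60, both from levels under 1 TPM at 21 °C. The HSFA7B groups overlapped, at 0, 0 and 0.355 TPM at 21 °C and 0.429, 0.224 and 0.625 TPM at 27 °C. HSFA3 had 3.76, 4.50 and 3.62 TPM in Col at 21 °C and 12.6, 13.5 and 14.4 TPM at 27 °C. Groups were well apart, the ratio of means was 3.41, and the change was 1.55 ± 0.11 (adjusted p = 3.04e-08). In ino80-5 it had 4.03, 4.16 and 4.95 TPM at 21 °C and 15.7, 12.9 and 15 TPM at 27 °C, a change of 1.53 ± 0.11 (adjusted p = 4.02e-08). HSFA3 overlaps the opposite-strand gene AT5G03710 by 486 bp, and that gene was listed at 12 h with 0 TPM in all libraries but 2 of ino80-5 at 27 °C, at 0.325 and 0.181 TPM.

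HSFA1B, which gave no call at 1 h, had 11.2, 8.21 and 10.2 TPM in Col at 21 °C and 13.7, 13.4 and 16.2 TPM at 27 °C. It rose by 0.51 ± 0.11 in Col and by 0.56 ± 0.11 in ino80-5, with adjusted p values of 0.00106 and 0.000492 by limma, without overlap of the groups. HSFB1 had 43.1, 38.7 and 40.4 TPM at 21 °C and 64.1, 64.4 and 52.6 TPM at 27 °C in Col, a rise of 0.55 ± 0.12 (adjusted p = 0.000841). In ino80-5 it had 55.1, 66.0 and 70.9 TPM and then 85.6, 112.4 and 84.8 TPM, a rise of 0.55 ± 0.12 (adjusted p = 0.000963). HSFB2B rose by 0.52 ± 0.11 in Col and by 0.96 ± 0.11 in ino80-5, with adjusted p values of 0.000895 and 3.67e-06 by limma.

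HSFA7A rose in Col, from 27.0, 21.1 and 26.3 TPM to 32.4, 36.0 and 36.6 TPM, by 0.49 ± 0.10 (adjusted p = 0.000543). In ino80-5 its libraries overlapped, at 47.6, 57.5 and 53.9 TPM against 59.6, 54.4 and 61.6 TPM, and the change of 0.14 ± 0.10 did not pass (adjusted p = 0.218). The difference between these changes was not called (-0.34 ± 0.14, adjusted p = 0.334). HSFA2 was near the detection limit at 12 h, at 0.15, 0.31 and 0.26 TPM in Col at 21 °C and 0.83, 1.14 and 0.85 TPM at 27 °C. It rose by 0.64 ± 0.17 in Col and 0.57 ± 0.17 in ino80-5, with adjusted p values of 0.00431 and 0.00922 by limma, on an estimated 3 to 32 fragments per library.

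HSFA1D was called higher in ino80-5 (0.40 ± 0.09, adjusted p = 0.00132) and gave no call in Col (0.15 ± 0.09, adjusted p = 0.156). The difference between these 2 changes was not called by limma (0.25 ± 0.13, adjusted p = 0.482). HSFA1E fell in ino80-5 by 0.31 on the log2 scale (adjusted p = 0.0434), but the adjusted p lay between 0.0561 and 0.215 without ino80-5 21 °C replicate 1, 2 or 3 or 27 °C replicate 1 or 3. It was 0.0594 with no filter and 0.0664 when only the groups compared were fitted. HSFA1A did not pass in either genotype. In all, 6 of 9 tested members rose and none fell in Col, against 36.8% of 19578 tested genes called higher and 21.8% lower. In ino80-5 6 rose and 1 fell, against 38.1% and 19.3%.

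The median change of all genes at 12 h was 0.13 in Col and 0.15 in ino80-5 as deposited, and 0.01 in both with median-of-ratios scaling. Of all calls 62.8% were higher in Col as deposited and 49.9% with that scaling, and in ino80-5 66.3% and 49.1%. The members called were equally many under it (6 higher in Col, and 6 higher with 1 lower in ino80-5). HSFA3 then rose by 1.44 in Col and 1.39 in ino80-5, HSFB1 by 0.42 and 0.39, and HSFA1B by 0.39 and 0.42. The summed green tissue markers at 12 h were 58310 TPM in Col at 21 °C against 40970 at 27 °C, and 52020 against 32300 in ino80-5. Of these 3 genes RBCS1A and CAB1 fell and LHCA1 rose, by 0.76 ± 0.08 in Col and 0.73 ± 0.08 in ino80-5, and their part in the changes of the members was not tested.

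**Figure D4:**
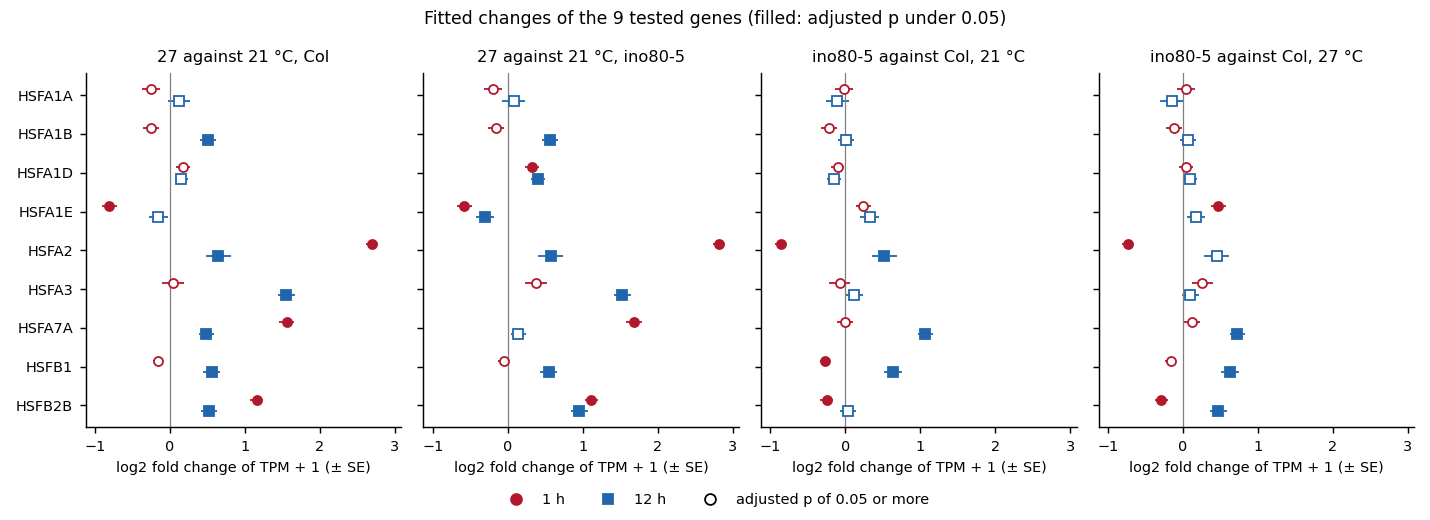
Fitted log2 fold changes of TPM + 1 with their SE for the 9 tested members in 4 comparisons, circles at 1 h and squares at 12 h, filled where the adjusted p was under 0.05. HSFA2 lies at 2.70 and 2.82 with warmth at 1 h, HSFA3 at 1.55 and 1.53 at 12 h, and HSFA2 and HSFB1 lie left of 0 at 1 h and right of 0 at 12 h in both genotype panels.

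The second question was whether the members differ between ino80-5 and Col at the same temperature. These comparisons share their groups with the temperature comparisons above. At 1 h HSFA2 was lower in ino80-5 at both temperatures: the difference was -0.85 ± 0.08 at 21 °C and -0.73 ± 0.08 at 27 °C, with adjusted p values of 8.11e-07 and 3.76e-06 by limma. Every ino80-5 library lay below every Col library of its temperature, and the Col means were 1.93 and 1.67 times those of the mutant. HSFB1 had 93.7, 112.8 and 98.6 TPM in Col at 21 °C and 86.0, 76.9 and 89.0 TPM in ino80-5, a difference of -0.27 ± 0.07 (adjusted p = 0.0071). At 27 °C its difference was -0.16 ± 0.07 (adjusted p = 0.0842), and it passed when only the 2 groups were fitted (adjusted p = 0.0199).

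HSFB2B was lower in ino80-5 at 27 °C (-0.29 ± 0.09, adjusted p = 0.0146), with 22.4, 20.5 and 23.8 TPM against 26.8 to 27.7 TPM in Col. That call was lost without ino80-5 27 °C replicate 2 (adjusted p = 0.0718). At 21 °C its difference was -0.25 ± 0.09 (adjusted p = 0.0335), with Col at 10.86 to 13.02 TPM and ino80-5 at 8.80 to 10.9 TPM, so that the groups overlapped. Without Col 21 °C replicate 2 or 3 or ino80-5 21 °C replicate 1 or 2 the adjusted p lay between 0.0504 and 0.132, and it was 0.0508 with median-of-ratios scaling and 0.0959 when only the groups compared were fitted. HSFA1E was higher in ino80-5 at 27 °C, with 4.05, 4.08 and 4.35 TPM against 2.27, 2.79 and 3.15 TPM in Col (0.47 ± 0.10, adjusted p = 0.00174). Its difference at 21 °C was 0.24 ± 0.10 (adjusted p = 0.0754), which passed with a pseudocount of 5 (adjusted p = 0.0414).

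HSFA7A, the other strongly warmth-responsive member, gave -0.01 ± 0.11 at 21 °C (95% interval -0.23 to 0.22) and 0.12 ± 0.11 at 27 °C (-0.10 to 0.35), with no call. HSFA1A, HSFA1B, HSFA1D and HSFA3 were not called at either temperature. Of 9 tested members none was higher and 3 were lower at 21 °C, against 15.4% and 20.5% of all tested genes. At 27 °C 1 was higher and 2 were lower, against 17.1% and 20.4%. These counts stand near the background and are no result about the members as a set. Summed seed maturation markers were 43.5 TPM in Col and 87.9 in ino80-5 at 21 °C, and 63.0 and 114 at 27 °C, with 4 of 5 higher and 1 lower at each temperature. Summed root markers were 1705 and 2169 TPM, and 1510 and 1850. Of 3 root markers tested, PYK10 and IRT1 were higher at 21 °C, and at 27 °C PYK10 was higher and WOX5 lower (-0.61 ± 0.16). Of 5 floral organ markers 1 was tested, and it was called higher in ino80-5, by 1.09 at 21 °C and 0.64 at 27 °C. The part of these markers in the genotype differences was not tested.

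At 12 h the members called were higher in ino80-5. HSFA7A had 27.0, 21.1 and 26.3 TPM in Col at 21 °C and 47.6, 57.5 and 53.9 TPM in ino80-5, with no overlap. The difference was 1.07 ± 0.10 at 21 °C and 0.73 ± 0.10 at 27 °C (adjusted p values 2.18e-06 and 6.3e-05 by limma), with ratios of means of 2.13 and 1.67. HSFB1 was higher by 0.63 ± 0.12 at both temperatures (adjusted p values 0.000958 and 0.000918), and its groups did not overlap. HSFB2B was higher at 27 °C, with 15.6, 16.8 and 14.8 TPM against 10.2, 10.9 and 12.1 TPM in Col (0.47 ± 0.11, adjusted p = 0.00457). At 21 °C its difference was 0.04 ± 0.11 (adjusted p = 0.833).

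HSFA2 at 12 h had 0.61, 0.78 and 0.96 TPM in ino80-5 at 21 °C against 0.15, 0.31 and 0.26 TPM in Col, without overlap. The difference of 0.52 ± 0.17 (adjusted p = 0.0309) was lost with a pseudocount of 5 (adjusted p = 0.0828), and without Col 21 °C replicate 1, 2 or 3 or ino80-5 21 °C replicate 2 or 3 the adjusted p lay between 0.0511 and 0.114. At 27 °C the difference was 0.45 ± 0.17 (adjusted p = 0.0557), and it passed with no filter (adjusted p = 0.0184), with a pseudocount of 5 (adjusted p = 0.0438) and without ino80-5 27 °C replicate 3 (adjusted p = 0.0332). HSFA1E gave 0.32 ± 0.12 at 21 °C (adjusted p = 0.0598), which passed when only the groups compared were fitted (adjusted p = 0.0364). Of 9 tested members 3 were higher and none lower at 21 °C, against 16.7% and 12.1% of all tested genes. At 27 °C 3 were higher and none lower, against 18.7% and 11.5%. Of all calls at 27 °C 61.9% were higher as deposited and 46.0% with median-of-ratios scaling, under which 3 members were again called higher. Summed root markers were 1982 TPM in Col and 3669 in ino80-5 at 21 °C, and 2208 and 3862 at 27 °C. Of the 3 root markers tested only PYK10 was called, higher by 0.91 ± 0.10 and 0.82 ± 0.10, while IRT1 and WOX5 gave -0.40 ± 0.34 and -0.39 ± 0.31 at 21 °C and 0.28 ± 0.34 and 0.37 ± 0.31 at 27 °C. Summed seed maturation markers were 23.4 TPM in Col and 45.5 in ino80-5 at 21 °C (3 of 5 higher, none lower) and 57.0 and 67.7 at 27 °C (2 higher, 1 lower). Summed green tissue markers were 58310 and 52020 TPM at 21 °C and 40970 and 32300 at 27 °C, with 1 of 3, CAB1, lower at each temperature. Of 5 floral organ markers 1 was tested, and it was called higher in ino80-5, by 0.79 at 21 °C and 1.24 at 27 °C. The part of these markers was not tested.

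The third question was whether warmth acted differently in the mutant. No member gave a called genotype by temperature interaction at 1 h or 12 h by limma, and none did under any alternative. Over all genes 1.09% were called higher and 0.792% lower at 1 h, and 0.327% and 0.424% at 12 h. For HSFA2 the response in ino80-5 minus that in Col was 0.12 ± 0.11 at 1 h (95% interval -0.12 to 0.36, adjusted p = 0.699). On this scale the lower level of HSFA2 in ino80-5 was thus present at both temperatures, and the interval leaves room for a response up to 0.36 larger or 0.12 smaller. For HSFA7A the interval at 1 h was -0.19 to 0.44 and for HSFB2B -0.30 to 0.22. At 12 h the largest differences were 0.44 ± 0.16 for HSFB2B (interval 0.10 to 0.77, adjusted p = 0.26) and -0.34 ± 0.14 for HSFA7A (interval -0.63 to -0.05, adjusted p = 0.334). Both intervals lie on 1 side of 0 before adjustment over all genes.

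Among the other 11 heat shock factor genes, 9 were tested at 1 h and 10 at 12 h. In Col at 1 h 5 rose and 3 fell, against 15.7% and 18.5% of all tested genes. HSFB2A, a class B relative of HSFB2B, rose from 11.3 ± 1.92 to 24.4 ± 1.55 TPM (SD, n = 3), by 1.06 ± 0.11. HSFA6A and HSFA6B rose by 1.09 ± 0.20 and 0.88 ± 0.14 from means of 0.689 and 0.644 TPM. HSFC1 rose by 0.66 ± 0.07 and HSFB4 by 0.34 ± 0.10, and HSFC1 is overlapped over 1808 bp by the opposite-strand gene AT3G24518. HSFA4A, HSFA4C and HSFA8 fell by 0.48, 0.27 and 0.72 on the log2 scale. The HSFB4 call was lost without Col 21 °C replicate 3 (adjusted p = 0.101) or 27 °C replicate 1 (adjusted p = 0.0891), and that of HSFA4C with no filter (adjusted p = 0.0507) and without 4 of the 6 libraries. In ino80-5 4 rose and 1 fell, against 15.2% and 16.8% of all tested genes, with HSFB2A at 1.09 ± 0.11. HSFA6A was higher in ino80-5 at both temperatures, by 1.09 ± 0.20 and 1.07 ± 0.20, and HSFA4A lower, by -0.90 ± 0.09 and -0.33 ± 0.09, the latter lost without ino80-5 27 °C replicate 3 (adjusted p = 0.0575). At 12 h 6 of 10 rose with warmth in each genotype and none fell, against 36.8% of all genes higher in Col and 38.1% in ino80-5. With median-of-ratios scaling 4 rose in Col and 5 in ino80-5, so these counts are no result about the list. HSFA9 was not tested at either time and HSFB3 was tested only at 12 h.

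Of 17 genes that regulate heat shock factors or work with them, 15 were tested at 1 h. Of these 11 rose in Col and 13 in ino80-5 with none falling, against 15.7% and 15.2% of all tested genes called higher. With median-of-ratios scaling 11 and 12 rose, and with quantile normalization 11 in each genotype. The median change of the 15 was 0.78 in Col against 0.00 for all genes. The FKBP-type co-chaperone ROF2 rose by 3.69 ± 0.08 in Col and 3.34 ± 0.08 in ino80-5, HSP90.1 by 3.30 ± 0.08 and 2.74 ± 0.08, and HSP70-4 by 2.87 ± 0.06 and 2.99 ± 0.06. DREB2A, which activates HSFA3 and is named here after its values were seen, stood at 30.8 ± 3.47 TPM in Col at 21 °C and 29.2 ± 2.93 at 27 °C after 1 h, with no call, and rose in ino80-5 by 0.36 ± 0.09. At 12 h DREB2A rose by 0.79 ± 0.10 in Col and 0.70 ± 0.10 in ino80-5. As ratios of means at 27 °C over 21 °C, DREB2A then stood at 1.78 in Col and 1.67 in ino80-5. Its relatives in the list differed, with DREB2C at 2.48 and 3.23 and DREB2B at 0.904 and 0.896. The part of DREB2A in the change of HSFA3 was not tested. In the mutant at 1 h 12 of 15 were lower and 1 higher at 21 °C, and 11 lower and 1 higher at 27 °C. Median-of-ratios scaling gave 10 lower and 1 higher at 21 °C and left the counts at 27 °C unchanged. Of all tested genes 20.5% were lower and 15.4% higher at 21 °C, and 20.4% and 17.1% at 27 °C. HSC70-2 was lower by -1.53 ± 0.07 and -1.72 ± 0.07 and HSP90.2 by -0.59 ± 0.05 and -0.93 ± 0.05, both members of families with near-identical neighbours, between which reads may be split. At 12 h the picture with warmth was mixed, with 6 of 16 rising and 9 falling in Col and 6 and 6 in ino80-5. Median-of-ratios scaling gave 5 and 7 in ino80-5. Of all tested genes 36.8% were higher and 21.8% lower in Col, and 38.1% and 19.3% in ino80-5. In the mutant 8 of 16 were higher at 27 °C and none lower, against 18.7% and 11.5% of all tested genes. Under median-of-ratios scaling 3 were higher and none lower.

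Of 18 target genes of heat shock factors, 15 were tested at 1 h. With warmth 14 rose in each genotype and none fell, against 15.7% of all tested genes called higher in Col and 15.2% in ino80-5. The median change of the targets was 2.19 in Col and 2.31 in ino80-5. The disaggregase HSP101 had 23.2, 24.5 and 21.4 TPM in Col at 21 °C and 88.5, 96.7 and 99.4 TPM at 27 °C, a rise of 2.0 ± 0.06 (adjusted p = 3.23e-12). In ino80-5 it had 14.4, 13.8 and 14.4 TPM and then 57.3, 60.5 and 61.8 TPM, a rise of 2.0 ± 0.06 (adjusted p = 1.96e-12). It was lower in ino80-5 by -0.66 ± 0.06 at 21 °C and -0.65 ± 0.06 at 27 °C (adjusted p values 1.03e-06 and 1.1e-06 by limma). The small chaperone gene HSP17.8 rose by 3.16 ± 0.09 in Col and 3.41 ± 0.09 in ino80-5. At each temperature 9 of 15 targets were lower in ino80-5 and 2 higher. Of all tested genes 20.5% were lower and 15.4% higher at 21 °C, and 20.4% and 17.1% at 27 °C. At 12 h 6 of 13 tested targets rose in Col and 11 in ino80-5, with 1 falling in each. Of all tested genes 36.8% and 38.1% were higher, and 21.8% and 19.3% lower. No target had a called genotype by temperature interaction at 12 h, also with median-of-ratios scaling or quantile normalization. The regulator MBF1C rose by 1.73 ± 0.09 and 1.93 ± 0.09, and GOLS1, an enzyme of galactinol synthesis, by 1.77 ± 0.14 and 1.51 ± 0.14. With median-of-ratios scaling 5 and 10 rose. In the mutant 3 of 13 were higher and 2 lower at 21 °C, against 16.7% and 12.1% of all genes, a count near the background. At 27 °C 4 were higher and none lower, against 18.7% and 11.5%.

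Patterns like those of the members were sought over the 24 libraries, as Pearson correlations of log2(TPM + 1) after each table's mean was removed, among 18827 genes tested at both times. They are descriptions, since the libraries share groups and depth. HSFA2 was most like HSP101 (r = 0.982), ROF2 (AT5G48570, r = 0.972) and HSP23.5 (AT5G51440, r = 0.968). HSFB2B was most like HSP70-4 (r = 0.979), HSP90.1 (r = 0.969) and AT2G20560 (r = 0.962). HSFA3 was most like NUDX15 (r = 0.982) and HSFA7A most like NPC3 (r = 0.974). Among the members HSFA2 went with HSFB2B (r = 0.905) and HSFA7A (r = 0.885) and opposite to HSFA1E (r = -0.811), and the nearest gene to HSFA1A reached only 0.713.

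**Figure D5:**
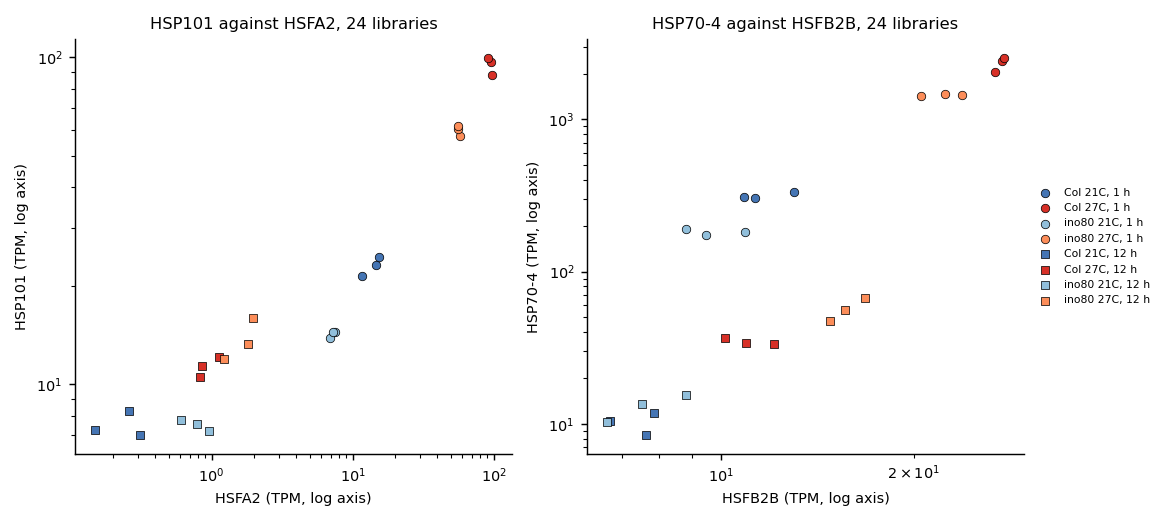
TPM of HSP101 against HSFA2 and of HSP70-4 against HSFB2B in the 24 libraries, log axes, circles at 1 h and squares at 12 h, coloured by group. The Col libraries at 27 °C and 1 h lie at the top right, above those of ino80-5, and at 12 h HSFA2 stays under 2 TPM.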

How the data were processed

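RNA-seq of whole seedlings was deposited as 1 table of TPM per time, made by the authors, with 1 column per library. Per the submitters' processing notes fastp 0.20.1, HISAT2 2.1.10, HTSeq 0.11.2 and the build TAIR10 were used, with no role or order stated. Gene lengths, strand setting and the filter behind each table are not given in the sources used here, and depth was estimated from the steps between small TPM values.

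Groups and replicate numbers came from the labels. Each table was fitted alone with limma 3.58.1 in R 4.3.3 on log2(TPM + 1), with 4 group means and empirical Bayes moderation with a trend, for genes at 1 TPM or more in at least 3 of 12 libraries. Benjamini-Hochberg adjustment covered all tested genes, two-sided, called under 0.05. The fit was tested on simulated data. Alternatives were pseudocounts of 0.1 and 5, other filters, rescalings, a replicate block, fits of only the groups compared, and leaving out each library.

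The members and gene lists were chosen with earlier results of these data known. Named genes are all members, the other heat shock factors, INO80, up to 4 called genes per list and comparison with the largest moderated statistic, and the 3 genes most like a member. DREB2A and its relatives DREB2B and DREB2C are named outside this rule. Motifs were searched in windows of TAIR10.1 from RefSeq, whose gene starts need not be those of the authors' annotation.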

Additional observations from a re-analysis of the deposited data

Results flagged for a closer look

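The difference between ino80-5 and Col had opposite signs at 1 h and 12 h for 3 members, with every ino80-5 library on one side of every Col library at each time. The change of sign itself was not tested, since the tables were scaled apart. HSFA2 differed by -0.85 at 1 h and 0.52 at 12 h at 21 °C (log2), and by -0.73 and 0.45 at 27 °C. HSFB1 differed by -0.27 and 0.63 at 21 °C and by -0.16 and 0.63 at 27 °C. HSFB2B differed by -0.29 and 0.47 at 27 °C. The 0.52 of HSFA2 rests on few fragments and lost its call in several alternatives, and the 0.45 and -0.16 were not called.

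Outside the members, 6 genes of the related lists changed with warmth by different amounts in the genotypes, by limma's interaction term (response in ino80-5 minus that in Col). At 1 h HSFA4A gave 0.57 (adjusted p = 0.0416) and HSFC1 -0.44 (adjusted p = 0.0291). HSP90.1 gave -0.57 (adjusted p = 0.0183), HSP90.2 -0.34 (adjusted p = 0.0216) and HSP17.4 -0.93 (adjusted p = 0.0188). HSP17.4 overlaps the opposite-strand gene AT3G07365 by 453 bp, and since the strand setting is not stated its values are uncertain. At 12 h HSC70-2 gave 0.96 (adjusted p = 0.0182). Each of these calls was lost in at least 1 alternative, that of HSFA4A without each library but ino80-5 27 °C replicate 3.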

How the results depend on the processing

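The number of members called stayed within 1.5 times in every comparison, for example 3 to 6 around 4 for warmth in Col at 1 h. Of 1335 member values under alternatives, 1300 kept their side of the threshold, 22 lost a call and 13 gained one. No called value changed sign, and 64 values uncalled in both settings, counted among the 1300, did. Over all genes the interaction counts moved most. At 1 h 361 genes were called, and 186 to 215 without Col 21 °C replicate 3, Col 27 °C replicate 2 or 3, or ino80-5 27 °C replicate 1 or 2. At 12 h 147 were called, and 54 to 83 without any Col 21 °C replicate or replicate 1 or 2 of ino80-5 at 21 °C or 27 °C. Whether equal replicate numbers mark paired samples is not given in the labels. Same-numbered libraries correlated at -0.05 to 0.12 at 1 h and -0.29 to 0.20 at 12 h. In 18 comparisons per time, 1 library was set against the 3 libraries of another group. The best match had the same number in 7 of 18 at 1 h and 3 of 18 at 12 h, with 3 candidates in each. With 3 libraries per group such correlations cannot decide whether samples were paired. With the replicate block 93 genes were called for the interaction at 12 h, and among members only HSFA1E (ino80-5 against Col, 21 °C, 12 h) changed its call (adjusted p = 0.0376). Ranked by Spearman, 10 of the 27 most-like genes were shared. Low transcript levels, and so few fragments, limit HSFA7B and, at 12 h, HSFA2.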
